A study of Mus musculus with 8 samples.

Results

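A set of 9 genes that act on histone H2A ubiquitination, on the stability of the MYC protein or as inhibitors of the cell cycle were followed in mouse embryonic fibroblasts (MEFs) that carry an extra copy of part of chromosome 16. They were taken by symbol from the count table: the deubiquitinases Usp16, Usp25, Usp28 and Bap1, the genes of the Polycomb repressive complex PRC1 Bmi1, Rnf2 and Ring1, and the cyclin-dependent kinase inhibitors Cdkn2a and Cdkn2b. All 9 were among the 19493 genes of the table and passed the filter on low counts, which kept 16470 genes. Usp16 and Usp25 lie in the duplicated region and the other 7 do not. The study compared 4 wild-type (WT) cultures with 4 Dp1Tyb cultures, both labelled C57BL/6J.129P2 and grown from E14.5 embryos in DMEM with 10% FBS. Per the methods of the study, all mice had been backcrossed to C57BL/6JNimr, and the label repeats the start of the Dp1Tyb strain name. Dp1Tyb cells carry the tandem duplication Dp(16Lipi-Zbtb21)1TybEmcf, so genes between Lipi and Zbtb21 are present in 3 copies, in cells of every type. The MEFs of the study came from embryos without head and viscera and were trypsinised after 2 passages, and each lot of Trizol received the same amount of ERCC spike-in RNA and of cells before poly(A) RNA was sequenced. The methods name littermate embryos as the source of MEFs, with numbers per genotype that differ from those here. Whether these 8 cultures came from littermates is not stated separately. A MEF culture is a mixture of mesenchymal cells and whatever other cells survive the passages, and in bulk RNA fewer cells of a type and less RNA per cell cannot be told apart.

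PRC1 attaches a single ubiquitin to histone H2A and so keeps many developmental genes silent. Its catalytic subunit is RING1B, encoded by Rnf2, or the related RING1A, encoded by Ring1, paired with a PCGF protein such as BMI1. USP16 and BAP1 remove this ubiquitin. The Cdkn2a and Cdkn2b genes are classical targets of PRC1 in fibroblasts: loss of BMI1 releases them and drives cells into senescence, an arrest that cultured MEFs also enter as they are passaged. Cdkn2b encodes p15INK4b, and Cdkn2a encodes p16INK4a and p19ARF from alternative first exons. The INK4 proteins inhibit the kinases CDK4 and CDK6 and thereby hold RB in its active form, whereas p19ARF stabilises p53. USP28 and its close relative USP25 also remove ubiquitin, and USP28 is known for stabilising MYC.

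The promoters of 3 members are printed because their normalised read counts did not overlap between the groups when scaled to the endogenous genes, and both promoters of Cdkn2a because its single count sums their transcripts. Each window runs 5′ to 3′ on the strand of the gene, from 250 bases before to 50 bases after a transcript start of RefSeq (build GRCm38.p6), and all 9 members matched the RefSeq table, with 10 windows. Capitals mark 4 motifs searched on both strands: the GC box GGGCGG, the ETS motif CCGGAAGT, the E-box CACGTG and the TATA box TATAAA.
Usp16, chr16:87454735-87455034, plus strand: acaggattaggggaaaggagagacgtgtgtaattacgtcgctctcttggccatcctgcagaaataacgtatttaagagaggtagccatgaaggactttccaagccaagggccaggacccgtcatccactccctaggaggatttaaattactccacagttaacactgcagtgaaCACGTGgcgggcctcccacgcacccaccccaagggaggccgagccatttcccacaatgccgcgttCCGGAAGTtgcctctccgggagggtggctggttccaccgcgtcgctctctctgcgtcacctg
Usp25, chr16:77013819-77014118, plus strand: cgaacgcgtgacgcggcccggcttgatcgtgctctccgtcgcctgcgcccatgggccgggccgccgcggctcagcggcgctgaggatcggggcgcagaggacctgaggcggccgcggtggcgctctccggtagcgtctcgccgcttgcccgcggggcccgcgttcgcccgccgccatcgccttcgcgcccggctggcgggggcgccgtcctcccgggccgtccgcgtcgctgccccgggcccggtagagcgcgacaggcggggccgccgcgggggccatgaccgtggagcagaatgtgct
Cdkn2b, chr4:89310983-89311282, minus strand: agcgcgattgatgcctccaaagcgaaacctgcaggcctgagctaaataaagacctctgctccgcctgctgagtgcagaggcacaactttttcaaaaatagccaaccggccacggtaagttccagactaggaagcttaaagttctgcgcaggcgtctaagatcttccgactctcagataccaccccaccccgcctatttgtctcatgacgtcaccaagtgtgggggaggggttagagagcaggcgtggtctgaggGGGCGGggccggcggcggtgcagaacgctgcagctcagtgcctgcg
Cdkn2a, chr4:89294570-89294869, minus strand, p19ARF start: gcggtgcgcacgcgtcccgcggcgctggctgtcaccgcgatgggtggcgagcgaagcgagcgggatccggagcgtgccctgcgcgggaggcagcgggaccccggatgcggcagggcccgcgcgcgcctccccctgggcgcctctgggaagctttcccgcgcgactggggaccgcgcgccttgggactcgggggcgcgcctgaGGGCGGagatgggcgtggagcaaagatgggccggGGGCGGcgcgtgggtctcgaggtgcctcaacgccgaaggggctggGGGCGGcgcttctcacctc
Cdkn2a, chr4:89282143-89282442, minus strand, p16INK4a start: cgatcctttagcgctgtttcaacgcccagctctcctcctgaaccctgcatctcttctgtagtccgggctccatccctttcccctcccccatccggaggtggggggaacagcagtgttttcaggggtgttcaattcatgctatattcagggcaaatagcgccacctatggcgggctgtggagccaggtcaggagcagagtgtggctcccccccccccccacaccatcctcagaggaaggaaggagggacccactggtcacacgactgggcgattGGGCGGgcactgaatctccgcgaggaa

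The window of Usp16 held 1 ETS motif and 1 E-box and no GC box. That of Usp25 held none of the 4 motifs but 54 CpG dinucleotides, against 17 in the Usp16 window and a median of 7 over the 32851 windows of the table. The Cdkn2b window held 1 GC box and 18 CpG. The 2 starts of Cdkn2a differed, with 3 GC boxes and 45 CpG at the p19ARF start and 1 GC box and 12 CpG at the p16INK4a start. A GC box stood in 35.7% of all windows, an ETS motif in 3.89%, an E-box in 7.15% and a TATA box in 13.6%. These matches are descriptions of letters and not of bound sites.

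The 8 libraries held between 17698900 and 26471758 counts, of which 0.882% to 1.65% were spike-ins. Counts were scaled in 2 ways, to the spike-ins, which refers a gene to the number of cells, and to the endogenous genes (relative scaling), which refers it to the rest of the transcriptome. The endogenous RNA per spike-in varied between 0.688 and 1.31 from library to library, and both genotypes covered most of that range. The biological coefficient of variation over all genes was 0.351 with the spike-ins and 0.232 with relative scaling. The values of single libraries below are relative normalised read counts unless stated otherwise. The median of the log2 fold changes over all genes was 0.01 with relative and 0.11 with spike-in scaling, and spike-in values are to be read against that shift.

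Of the 9 members, the duplicated Usp16 and Usp25 and the Cdkn2b gene outside the duplication had higher counts in every Dp1Tyb library than in any WT library with relative scaling. The fold changes were 1.51, 1.62 and 1.45. A separation of this kind was seen for 1.64% of the tested genes. The same 3 members, and none with a lower count, had an unadjusted p under 0.05 in edgeR's quasi-likelihood test. Of the tested genes, 1.74% were higher and 2.53% lower in Dp1Tyb at that threshold. In the duplicated region, which holds Usp16 and Usp25, 60 of 112 tested genes were higher at that threshold. No member passed the Benjamini-Hochberg adjusted threshold of 0.05 in edgeR over all genes, under which 3 genes (0.0182%) passed with relative scaling and 2 (0.0121%) with the spike-ins. The counts of genes with an unadjusted p under 0.05 were 703 and 192. With spike-in scaling Usp16 and Usp25 had an unadjusted p under 0.05 among the 0.85% of genes that were so and higher, and no member was free of overlap, as 0.285% of the genes were. Under DESeq2 and its own size factors 53 genes passed (0.322%), of which 1, Usp25, was a member.

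**Figure D1:**
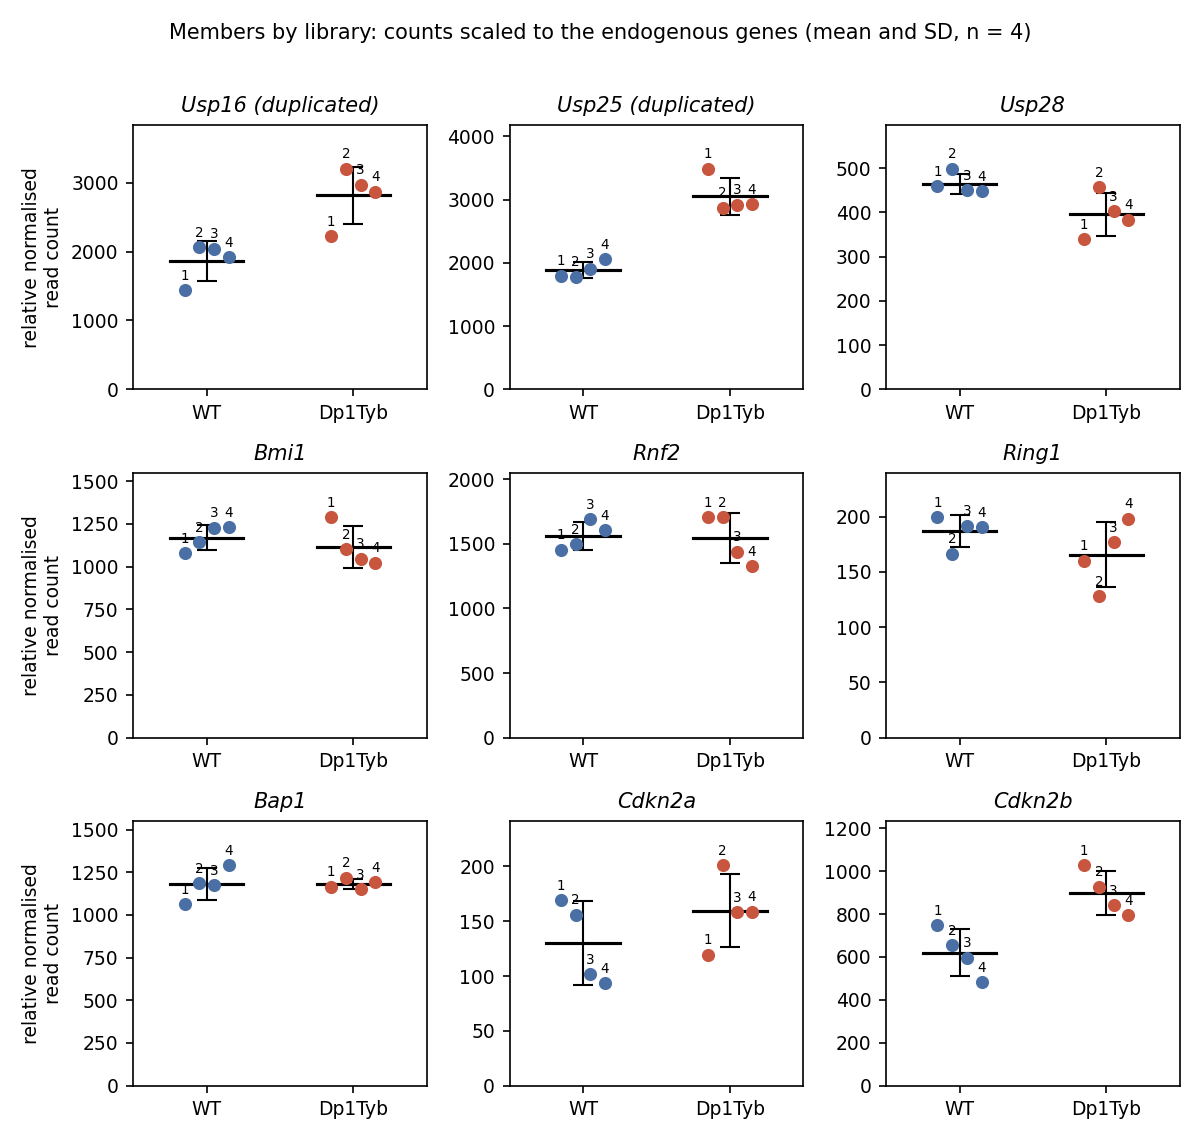
Relative normalised read counts (vertical axes, from 0) of the 9 members in 4 WT (blue) and 4 Dp1Tyb (red) libraries, with the replicate number above each point and the mean with its SD as bars. The Dp1Tyb points lie above all WT points for Usp16, Usp25 and Cdkn2b and mix with them for the other 6 genes.

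**Figure D2:**
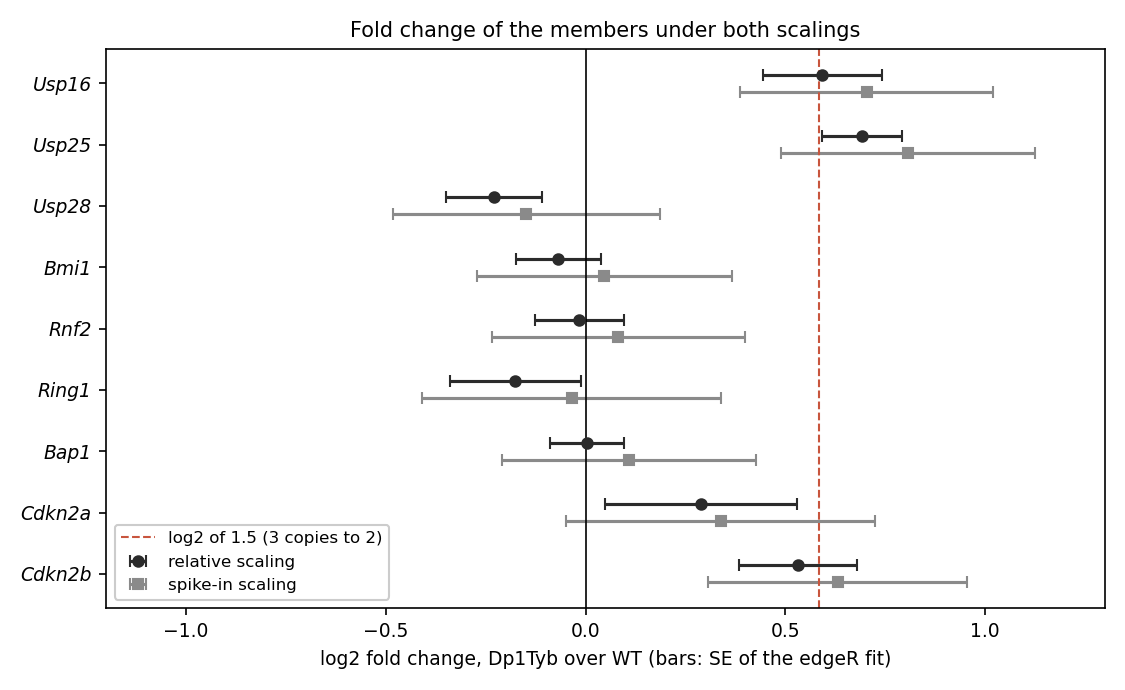
Log2 fold change of Dp1Tyb over WT (horizontal axis) for each member with relative scaling (circles) and spike-in scaling (squares), with the SE of the edgeR fit as bars and log2 of 1.5 as a dashed line. Usp16, Usp25 and Cdkn2b lie near the dashed line, Bmi1, Rnf2 and Bap1 near 0.

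Usp16 (ENSMUSG00000025616, chr16:87454703-87483517, plus strand) encodes the deubiquitinase that takes ubiquitin off H2A before mitosis. Its counts were 1439.6, 2064, 2039.9 and 1917 in the WT libraries and 2224, 3199, 2968 and 2866 in the Dp1Tyb libraries, in the order of the replicate numbers. Replicate 1 was the lowest of its group in both genotypes, and the groups did not overlap. The means were 1865 ± 291 and 2814 ± 417 (SD, n = 4), a log2 fold change of 0.59 (SE 0.15). The edgeR adjusted p was 0.612 with relative scaling, and over the alternatives it ranged from 0.0535 to 1.00. With spike-in scaling the log2 fold change was 0.70 (SE 0.32), and 3 of 4 Dp1Tyb libraries were above all WT libraries. A test of the difference from a fold change of 1.5, the ratio of 3 copies to 2, gave an unadjusted p of 0.957 in edgeR for Usp16. Its 3′ end overlaps that of Cct8, a chaperonin gene on the opposite strand, over 192 bases, and the strand option of the authors' counting is not given in the sources used here.

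Usp25 (ENSMUSG00000022867, chr16:77013706-77116780, plus strand) lies 10.3 Mb from Usp16, nearer the Lipi end of the duplication. Its product removes ubiquitin from signalling proteins, among them TRAF3 and TRAF6 of the innate immune response. WT counts were 1799, 1783, 1910.2 and 2059, and Dp1Tyb counts were 3485, 2868, 2920.4 and 2927. All Dp1Tyb libraries were high, and replicate 1 stood above the other 3, which were close together. From a mean of 1888 ± 127 (SD, n = 4) in WT, Usp25 reached 3050.0 ± 291 (SD, n = 4) in Dp1Tyb, with a log2 fold change of 0.69 (SE 0.10). It ranked 8 among the 16470 genes by p, and its edgeR adjusted p was 0.0903. DESeq2 called it with a log2 fold change of 0.69 and an adjusted p of 5.77e-06, and over all alternatives with relative scaling the adjusted p ranged from 5.77e-06 to 0.599. Without Dp1Tyb replicate 1 the log2 fold change fell to 0.62 with an edgeR adjusted p of 0.141. With spike-in scaling it was 0.81 (SE 0.32, edgeR adjusted p 1.00). The unadjusted p against a fold change of 1.5 was 0.308 in edgeR.

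Both genes sat in the bulk of the duplicated region, whose 112 tested genes had a median log2 fold change of 0.54 (relative scaling) or 0.64 (spike-in scaling). Usp25 ranked 33 of 112 by log2 fold change and 5 by p, and Usp16 ranked 50 and 41. The neighbours of Usp16 were higher in Dp1Tyb without overlap in 3 cases: Ltn1, a ligase of ribosome quality control, at a fold change of 1.5, Cct8 at 1.66 and Rwdd2b at 1.82. The fourth, Map3k7cl, was little expressed and overlapped (log2 fold change 0.59, SE 0.41). Around Usp25 the genes were less even. Cxadr, the receptor of coxsackievirus and adenovirus, had a fold change of 1.55 with no overlap, and Nrip1, a nuclear receptor corepressor, had 1.35 with overlap. Samsn1 and Gm11146 had group means of 8.97 to 16.0 counts, with log2 fold changes of -0.54 (SE 0.41) and 0.22 (SE 0.38).

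**Figure D3:**
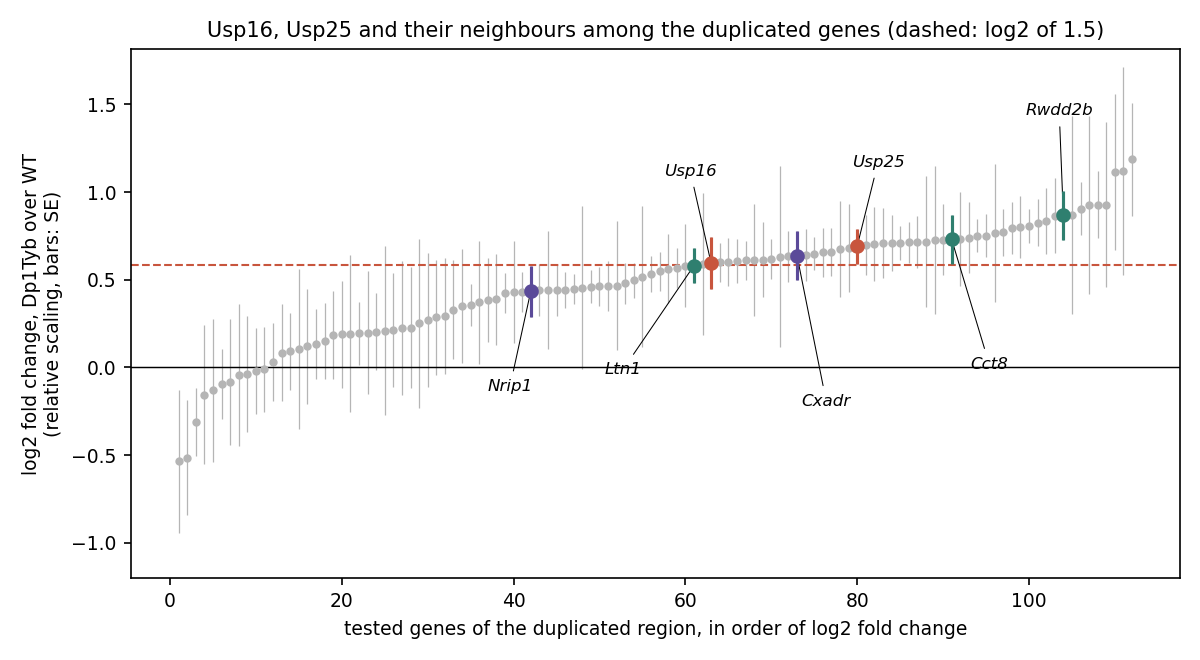
Log2 fold change with relative scaling (vertical axis, bars are the SE) of the 112 tested genes of the duplicated region, ordered by that value along the horizontal axis, with log2 of 1.5 dashed. Usp16 and Usp25 (red) and their neighbours Ltn1, Cct8, Rwdd2b and Cxadr lie near or above the dashed line, and Nrip1 lies below it.

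Usp28 (ENSMUSG00000032267, chr9:48985375-49042517, plus strand) is the close relative of Usp25 that is not duplicated. It had counts of 458, 498, 450.3 and 448 in WT and of 339, 457, 403 and 383 in Dp1Tyb. In Dp1Tyb replicates 1, 3 and 4 it was below all WT libraries, and in replicate 2 it was inside the WT range. The means were 464 ± 23.3 and 396 ± 48.7 (SD, n = 4), and the log2 fold change of -0.23 (SE 0.12) had an unadjusted edgeR p of 0.0851. Leaving out 1 library, it ran from -0.31 without Dp1Tyb replicate 2 to -0.16 without Dp1Tyb replicate 1. The unadjusted edgeR p was 0.0281 and 0.203 in these 2 fits, and 0.0341 with upper-quartile factors (-0.28). The lowest adjusted p over the alternatives was 0.515, in edgeR with the replicate number as a block. With spike-in scaling it was -0.15 (SE 0.34), and it ran from -0.29 without WT replicate 3 to -0.03 without Dp1Tyb replicate 2. In every library Usp25 was the more abundant per length: the ratio of its RPKM (reads normalised to the depth of the library and the length of the longest protein-coding transcript) to that of Usp28 was 3.53 ± 0.375 (SD, n = 4) in WT and 6.80 ± 1.48 (SD, n = 4) in Dp1Tyb. The log2 ratio of the counts within a library, on which scaling has no effect, was 1.97, 1.84, 2.08 and 2.20 in WT and 3.36, 2.65, 2.86 and 2.93 in Dp1Tyb. The groups did not overlap, and the ratio was 1.90 times higher in Dp1Tyb. Its exact two-sided permutation p was 0.0286, the smallest that 4 against 4 libraries can give, and 0.0714 after adjustment over the 5 ratios tested. Dp1Tyb replicate 1 held both the highest Usp25 and the lowest Usp28, and without it the difference of the log2 ratios fell from 0.93 to 0.79.

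The genes of PRC1 did not pass the test in either direction. Rnf2 (ENSMUSG00000026484, chr1:151458004-151500955, minus strand), the main E3 ligase, had counts of 1454, 1499.7, 1692 and 1605 in WT and of 1709, 1708, 1439 and 1327 in Dp1Tyb. Its Dp1Tyb libraries split to both sides of the WT values, and the means were 1563 ± 107 and 1546 ± 193 (SD, n = 4). Ring1 (ENSMUSG00000024325, chr17:34020792-34024680, minus strand), its alternative, had 199.8, 167, 192 and 190.7 in WT and 160.0, 128, 177 and 198 in Dp1Tyb. Replicate 2 was low in both genotypes, and the groups overlapped. Bmi1 (ENSMUSG00000026739, chr2:18677018-18686629, plus strand), the PCGF partner, had 1077, 1142, 1226 and 1231 in WT and 1290.3, 1101, 1045 and 1022 in Dp1Tyb. Here too Dp1Tyb replicate 1 was the highest and replicates 3 and 4 the lowest of the 8 libraries. The log2 fold changes with relative scaling were -0.02 (SE 0.11) for Rnf2, -0.18 (SE 0.16) for Ring1 and -0.07 (SE 0.11) for Bmi1. Leaving out 1 library, Ring1 ran from -0.27 without Dp1Tyb replicate 4 to -0.07 without Dp1Tyb replicate 2, and Bmi1 from -0.15 without Dp1Tyb replicate 1 to -0.03 without Dp1Tyb replicate 4. With spike-in scaling Rnf2 (0.08) and Bmi1 (0.05) changed sign, with SE of 0.32 each, and Ring1 was at -0.03 (SE 0.37).

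Per length, Rnf2 was the more abundant of the alternative catalytic subunits, at 5.32 ± 0.491 (SD, n = 4) times the RPKM of Ring1 in WT and 6.18 ± 1.87 (SD, n = 4) times in Dp1Tyb. The log2 ratio of their counts was 2.86, 3.17, 3.14 and 3.07 in WT and 3.41, 3.73, 3.02 and 2.74 in Dp1Tyb. The Dp1Tyb values were spread more widely on both sides of those of WT (exact permutation p = 0.514). Rnf2 and Trmt1l, on opposite strands, share 158 bases, and Trmt1l had a log2 fold change of 0.15 (SE 0.13).

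Bap1 (ENSMUSG00000021901, chr14:31251450-31259944, plus strand), the H2A deubiquitinase that is not duplicated, had the smallest fold change of the members with relative scaling. Its counts were 1063, 1186, 1175 and 1292 in WT and 1164, 1219, 1152 and 1193 in Dp1Tyb. The Dp1Tyb values lay inside the WT range, with means of 1179 ± 93.5 and 1182 ± 29.9 (SD, n = 4) and a log2 fold change of 0.00 (SE 0.09). With spike-in scaling it was 0.108 (SE 0.32), close to the median of 0.112 over all genes. The log2 ratio of Usp16 to Bap1 was 0.44, 0.80, 0.80 and 0.57 in WT and 0.93, 1.39, 1.37 and 1.26 in Dp1Tyb. No Dp1Tyb library overlapped the WT range, and the ratio was 1.5 times higher in Dp1Tyb (exact permutation p = 0.0286, adjusted over the 5 ratios 0.0714). Set against the ligase, Usp16 over Rnf2 was at a log2 ratio of -0.01, 0.46, 0.27 and 0.26 in WT and 0.38, 0.91, 1.04 and 1.11 in Dp1Tyb. Only Dp1Tyb replicate 1 fell into the WT range. The fold was 1.53, with an exact permutation p of 0.0571 and 0.0952 after adjustment. Without that library the difference of the log2 ratios was 0.78 with an exact p of 0.0286, a separation that follows from which library was left out. Leaving out any other library gave an exact p of 0.0571 or 0.0857 and a difference of the log2 ratios between 0.53 and 0.69.

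**Figure D4:**
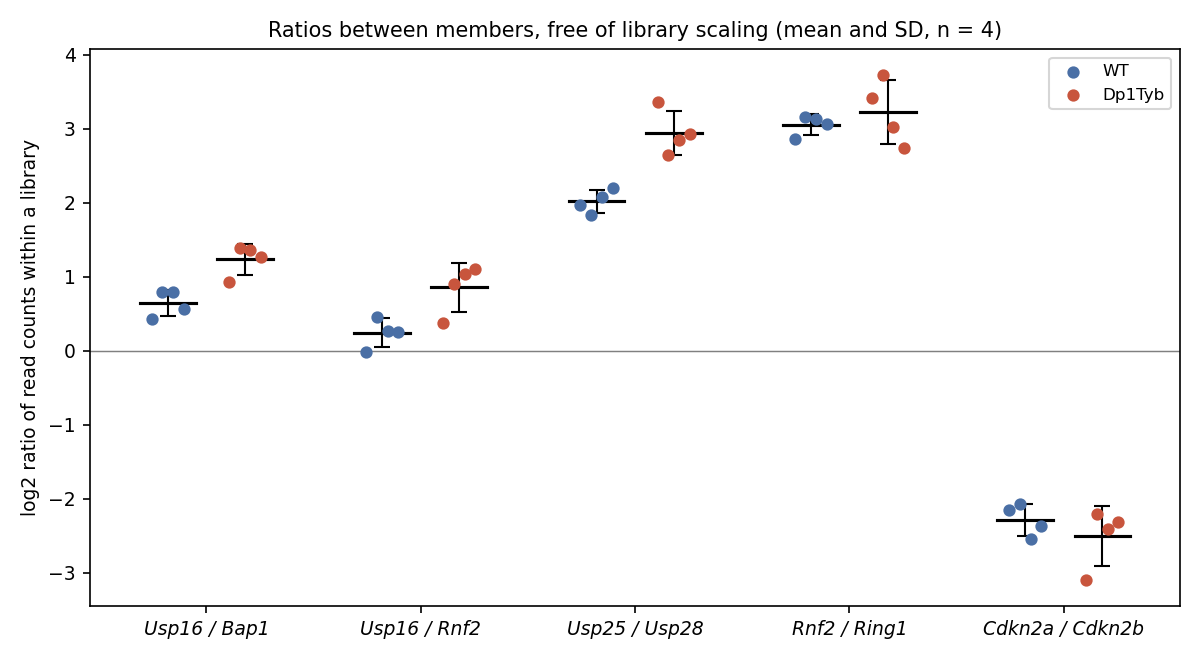
Log2 ratio of read counts within a library (vertical axis) for 5 pairs of members in WT (blue) and Dp1Tyb (red), with the mean and SD of 4 libraries as bars. The groups are apart for Usp16 over Bap1 and Usp25 over Usp28, nearly so for Usp16 over Rnf2, and mixed for the remaining 2 pairs.

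Cdkn2b (ENSMUSG00000073802, chr4:89306299-89311039, minus strand), which encodes p15INK4b, was the member outside the duplication with the largest difference. It had 748, 656, 596 and 483 counts in WT and 1029, 927, 841 and 793 in Dp1Tyb. Every Dp1Tyb library was above every WT library, although the lowest Dp1Tyb value, 793, was near the highest WT value, 748. The means were 621 ± 111 and 898 ± 103 (SD, n = 4), a log2 fold change of 0.53 (SE 0.15). Its unadjusted edgeR p was 0.00496, rank 91 of 16470, and its adjusted p was 0.876, between 0.115 and 1.00 over the alternatives. With spike-in scaling the log2 fold change was 0.63 (SE 0.32), and 2 of 4 Dp1Tyb libraries were above all WT libraries. Without Dp1Tyb replicate 1 the log2 fold change with relative scaling was 0.46, with an unadjusted edgeR p of 0.0130.

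Cdkn2a (ENSMUSG00000044303, chr4:89274471-89294653, minus strand) lies 11646 bases from Cdkn2b. Its transcript for p19ARF starts at position 89294653 and that for p16INK4a at 89282192, and the deposited count does not separate them. Cdkn2a had 169, 156, 101.9 and 93.3 counts in WT and 119.6, 201, 158 and 159 in Dp1Tyb. The groups overlapped, since WT replicates 1 and 2 were close to Dp1Tyb replicates 3 and 4. The log2 fold change was 0.29 (SE 0.24, unadjusted edgeR p 0.257) with relative scaling and 0.34 (SE 0.39) with spike-in scaling. Without 1 library it ran from 0.16 (without Dp1Tyb replicate 2) to 0.44 (without WT replicate 1) with relative scaling and from 0.13 (without WT replicate 3) to 0.63 (without WT replicate 1) with the spike-ins. Per length, Cdkn2b was 3.16 ± 0.481 (SD, n = 4) times as abundant as Cdkn2a in WT and 3.79 ± 1.18 (SD, n = 4) times in Dp1Tyb. The log2 ratio of Cdkn2a to Cdkn2b counts differed by -0.23 (exact permutation p = 0.429), and by -0.03 without Dp1Tyb replicate 1, in which Cdkn2b was the highest and Cdkn2a the lowest of that group.

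The genes around this locus had smaller fold changes than Cdkn2b. Mtap, an enzyme of methionine salvage next to Cdkn2a, had a log2 fold change of 0.29 (SE 0.15, unadjusted edgeR p 0.0761). Mtap, Klhl9 (0.02), Elavl2 (0.15) and Tusc1 (-0.09) overlapped between the groups. The summed relative counts of 28 proliferation markers ran from 31657 to 72929 in WT and from 14186 to 68814 in Dp1Tyb. The lowest of these sums belonged to Dp1Tyb replicate 1, which had the highest Cdkn2b and Usp25 counts, and the part of this in their values was not tested. No proliferation marker of the 28 had an unadjusted p under 0.05, against 1.74% higher and 2.53% lower of all tested genes. The median log2 fold change of the markers was 0.03.

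Compared per length, Usp16 was the most abundant member in WT at 27.6 ± 4.31 RPKM (SD, n = 4), before Rnf2 at 23.2 ± 1.59, Cdkn2b at 21.2 ± 3.80, Usp25 at 18.8 ± 1.26, Bap1 at 16.2 ± 1.28 and Bmi1 at 15.5 ± 0.974. Each of these overlapped with the next. Cdkn2a at 6.90 ± 2.02 was apart from Bmi1, and it overlapped with Usp28 at 5.33 ± 0.268, which was apart from Ring1 at 4.37 ± 0.335. In Dp1Tyb the order was Usp16 (41.7 ± 6.18), Cdkn2b (30.7 ± 3.53), Usp25 (30.3 ± 2.89), Rnf2 (22.9 ± 2.87), Bap1 (16.2 ± 0.411), Bmi1 (14.7 ± 1.61), Cdkn2a (8.46 ± 1.77), Usp28 (4.55 ± 0.560) and Ring1 (3.87 ± 0.696), all in RPKM with SD, n = 4. Among neighbours in that order, Usp25 was apart from Rnf2, Rnf2 from Bap1, Bmi1 from Cdkn2a and Cdkn2a from Usp28, and the others overlapped. The order depended on the length used. With all annotated exons of Usp16 merged (9454 bases in place of 3205) its level was 9.37 RPKM in WT and 14.1 RPKM in Dp1Tyb. By merged exons Cdkn2b (21.2 RPKM) was then the highest member in WT, before Rnf2 (17.99 RPKM), Usp25 (17.24 RPKM), Bmi1 (13.98 RPKM) and Bap1 (11.96 RPKM), with Usp16 after them.

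The wider set of 35 PRC1 subunits kept close to the median of all tested genes. None had an unadjusted p under 0.05 in either direction, against 1.74% higher and 2.53% lower of all tested genes. The log2 fold changes of the subunits ran from -0.22 to 0.19, and their median was -0.02 against 0.01 over all genes. The smallest p belonged to Pcgf3 (0.16), Yaf2 (0.18) and Phc1 (-0.21), subunits of variant and canonical PRC1. Among the 6 PCGF proteins, which define the forms of PRC1, Pcgf3 had the highest level at 18.2 to 24.2 RPKM over the 8 libraries, then Bmi1 at 13.5 to 17.1, Pcgf2 at 8.20 to 13.1, Pcgf1 at 6.28 to 9.14, Pcgf6 at 3.78 to 5.89 and Pcgf5 at 0.936 to 1.48. This family was set out after its values were seen.

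Of the 13 tested subunits of PRC2, which lays down the H3 methylation that canonical PRC1 reads, 1 was lower with an unadjusted p under 0.05 and none higher, against 2.53% lower and 1.74% higher of all tested genes, with a median of -0.07. That gene was Lcor (-0.35, SE 0.13), and Jarid2 (-0.49, SE 0.22) and Phf19 (-0.65, SE 0.37) followed without passing. That count of 1 was 0 without WT replicate 4, 3 without WT replicate 1 and 2 without WT replicate 2, Dp1Tyb replicate 1 or Dp1Tyb replicate 4, while the number over all tested genes went from 703 to 668, 757, 921, 925 and 761 in these fits. Among 24 H2A deubiquitinases and BAP1 partners, Usp16 was the only gene higher at an unadjusted p under 0.05, and 2 were lower: Usp51 (-0.90, SE 0.32), at mean counts of 18.3 in WT and 9.94 in Dp1Tyb, and Asxl3 (-0.34, SE 0.13), a BAP1 cofactor. The median of that list was -0.04, and without Dp1Tyb replicate 1 only 1 of its genes had such a p. The 16 H2A ubiquitin ligases outside PRC1 held no gene with an unadjusted p under 0.05 and had a median of 0.01. Rnf8 (-0.33), Cul4a (0.11) and Ddb1 (0.12) came nearest.

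Among 20 substrates and partners of USP25 and USP28, Usp25 itself was higher at an unadjusted p under 0.05. Syk (-0.48, SE 0.16), a kinase mostly of blood cells, was lower. Over all tested genes, 1.74% were higher and 2.53% lower at that threshold. Hif1a, whose product is a substrate of USP28, had 0.18 (SE 0.09), and the median of the list was 0.05. Leaving out Dp1Tyb replicate 2 raised the 2 genes of this list to 4, while the number over all tested genes fell from 703 to 529. Myeloid markers moved with Syk: all 9 tested markers of macrophages and leukocytes had negative log2 fold changes, with a median of -0.60. At an unadjusted p under 0.05, 7 of the 9 were lower, against 2.53% of all tested genes. The summed count of the markers was 5911 to 8043 in WT and 3295 to 6534 in Dp1Tyb. The defining markers Ptprc (-0.87), Cd68, Adgre1 and Csf1r were all detected, and none of the 9 passed the adjusted threshold. Without WT replicate 1, 4 in place of 7 had an unadjusted p under 0.05, while over all tested genes 757 in place of 703 did. With spike-in scaling 1 of these markers, Ptprc, had such a p, and their median was -0.48. In that fit 192 of all tested genes had such a p, of which 140 were higher. With relative scaling 703 had it, of which 416 were lower. The part of these markers in the Syk value was not tested. Within the whole USP family, 45 genes were tested, around a median of -0.01. At an unadjusted p under 0.05, 2 were higher, the duplicated Usp25 and Usp16, and 1 was lower, Usp51. Without WT replicate 1 there were 5 such genes in all, against 757 over all tested genes. Of all tested genes, 1.74% were higher and 2.53% lower in this way. With spike-in scaling Usp25 and Usp16 kept an unadjusted p under 0.05. Syk, Usp51, Asxl3 and Lcor did not, at log2 fold changes of -0.33, -0.83, -0.23 and -0.24.

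In the RB and p53 arms fed by the Cdkn2 locus, 1 of 24 genes was higher and 1 lower at an unadjusted p under 0.05. Among all tested genes, 1.74% were higher and 2.53% lower in this way. The higher gene was Cdkn2b and the lower was Ccnd1 (-0.42, SE 0.16), the cyclin D1 partner of CDK4 and CDK6. The other INK4 genes Cdkn2c (-0.14) and Cdkn2d (-0.02), the p53 target Cdkn1a (-0.03) and Trp53 (0.13) did not pass. Ccnd1 was not free of overlap, at 51.6 to 81.1 RPKM in WT and 41.4 to 57.6 RPKM in Dp1Tyb. The median of these genes was -0.02. Their 2 genes with an unadjusted p under 0.05 became 4 without Dp1Tyb replicate 1. They became 1 without WT replicate 1 or Dp1Tyb replicate 2, 3 or 4. In the order of these fits, the number over all tested genes went from 703 to 925, 757, 529, 578 and 761. With spike-in scaling no gene of this list had such a p, at log2 fold changes of 0.63 for Cdkn2b and -0.31 for Ccnd1. The number over all tested genes was 192 in that fit. Of 30 regulators of the locus, 1 was higher at an unadjusted p under 0.05 and none lower, against 1.74% and 2.53% of tested genes. The higher regulator was Bach1 (0.55, SE 0.11), a haem-regulated repressor that is itself duplicated, as are Ets2 (0.39, SE 0.26) and Runx1 (0.33, SE 0.28). The median over all 30 regulators was -0.04. A further gene had such a p (2 in all) without WT replicate 2 or Dp1Tyb replicate 1. The number over all tested genes was 921 and 925 in these 2 fits.

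Genes of senescence and its secretome had a median of 0.07 over 25 tested genes, with 17 positive and 8 negative log2 fold changes. At an unadjusted p under 0.05, 3 were higher and none lower, against 1.74% higher and 2.53% lower of all tested genes: Igfbp7 (0.43, SE 0.16), which binds growth factors, and the chemokines Ccl2 (0.46, SE 0.18) and Ccl7 (0.44, SE 0.19). With spike-in scaling these 3 had log2 fold changes of 0.55, 0.57 and 0.52. None of the 25 had an unadjusted p under 0.05 in that fit, against 192 of all tested genes. None passed the adjusted threshold. Without Dp1Tyb replicate 2 no gene of the list had an unadjusted p under 0.05 with relative scaling. The number was 1 without WT replicate 2, Dp1Tyb replicate 1 or Dp1Tyb replicate 4, and 5 without WT replicate 1. In the order of these fits, the number over all tested genes went from 703 to 529, 921, 925, 761 and 757. Lmnb1 (-0.09, SE 0.28), a lamin that is lost in senescence, and Il6 (0.06, SE 0.54) did not pass.

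**Figure D5:**
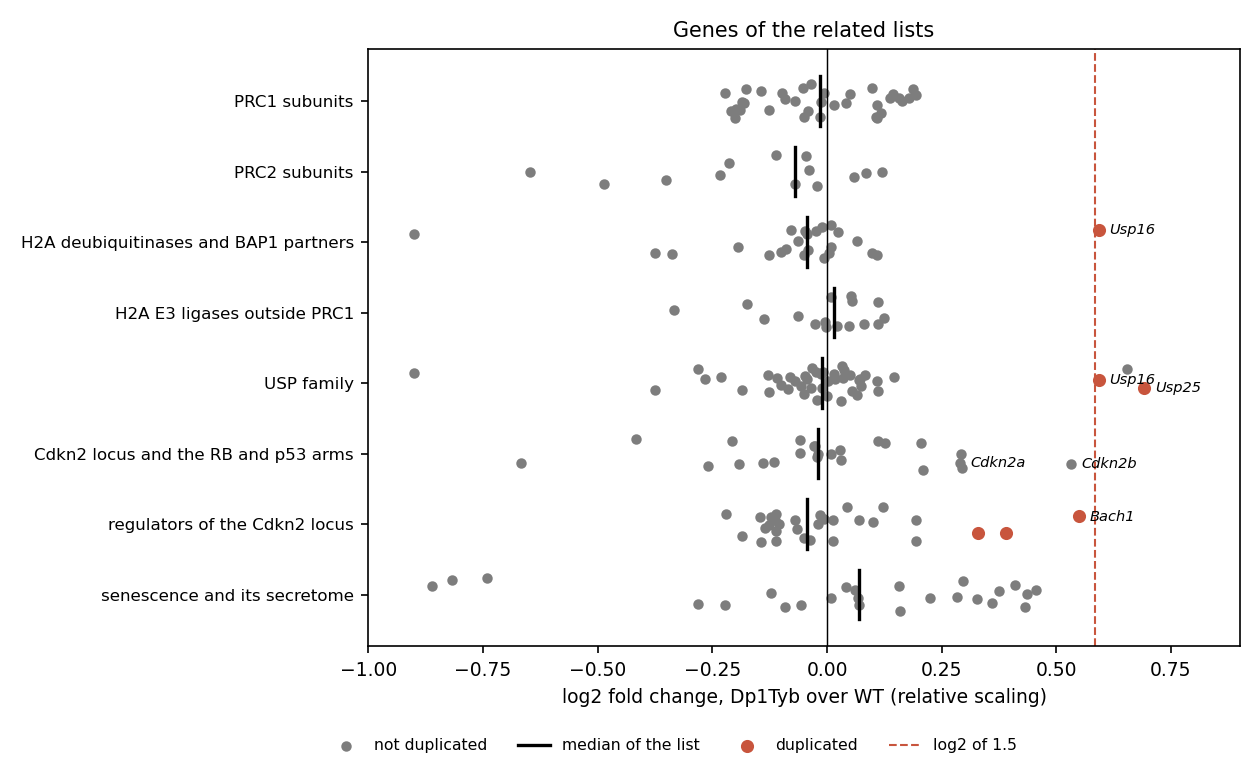
Log2 fold change with relative scaling (horizontal axis) of each tested gene in 8 related lists, with duplicated genes in red, the list median as a black bar and log2 of 1.5 dashed. The medians lie between -0.07 and 0.07, and Usp16, Usp25, Cdkn2b and Bach1 stand to the right of most genes in their lists.

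The cultures carried the markers of fibroblasts, with 12 of 12 tested at summed counts of 505615 to 721603 in WT and 589927 to 714716 in Dp1Tyb. No fibroblast marker had an unadjusted p under 0.05, against 1.74% higher and 2.53% lower of all tested genes. The profile of Usp16 over the 8 libraries was most like those of Tgfb3 (Pearson r of log2 values 0.975), Habp4 (0.971), Ralb (0.968) and the duplicated Bach1 (0.967) and Gabpa (0.962). For Usp25 the closest were Acp6 (0.972) and the duplicated Synj1 (0.971), Urb1 (0.970), Morc3 (0.966) and Ifnar2 (0.964). For Cdkn2a they were 9530056K15Rik (0.970), Serpinb6b (0.968), Tmem160 (0.968), Pter (0.964) and Mrpl23 (0.962). These are the highest of 16470 values over 8 libraries that share the difference between the genotypes and the scaling of each library. They describe likeness in these cultures alone.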

How the data were processed

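RNA of 8 MEF cultures was analysed, grouped by the genotype in the labels. The authors' deposited table held raw whole-number counts per gene and spike-in. Per the methods and the submitters' processing notes, the authors trimmed reads with Trim Galore, aligned them to GRCm38 plus the ERCC sequences with TopHat2 2.0.12, dropped reads with several alignments and counted with HTSeq. The annotation release and strand option are not given in the sources used here. A deposited normalised table and the authors' DESeq2 1.6.3 table (means, fold changes, p-values) were not used. Counts were fitted with edgeR 4.0.16 in R 4.3.3 (filterByExpr, glmQLFit, two-sided, Benjamini-Hochberg over 16470 genes), scaled by median-of-ratios factors of 63 spike-ins or by TMM factors of the endogenous genes. DESeq2 1.42.0, other scalings, filters, a replicate block and each library left out served as alternatives. Ratios used a pseudocount of 0.5 counts and exact permutation of 8 libraries. Positions came from GENCODE M21 (GRCm38), in which 175 gene IDs had no match. RPKM used the longest protein-coding transcript, and merged exons were added after seeing the data.

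The members and gene lists were chosen with earlier results of these data known. Besides the members, the rule named up to 3 genes of smallest p per list, the 5 most similar profiles of Usp16, Usp25 and Cdkn2a, and the nearest 2 tested protein-coding genes on each side of Usp16, Usp25, Cdkn2a and Cdkn2b. Nothing in the labels says that same-numbered cultures are related, and p-values measure the spread between these cultures.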

Additional observations from a re-analysis of the deposited data

Results flagged for a closer look

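The relative normalised read count of Usp25 in Dp1Tyb replicate 1 was 3485, against 2868 to 2927 in the other Dp1Tyb libraries. Its gap to the next library was 0.903 of the range of the group, above Dixon's critical value for 4 samples. It was the 1 value so marked among 46 groups of 4 that were examined, and chance marks about 1 in 20. The same library had the lowest Usp28 count (339) and the lowest sum of proliferation markers (14186), and the part of these in the value was not tested.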

How the results depend on the processing

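Both scalings and all fits gave Usp16, Usp25, Cdkn2a and Cdkn2b a positive and Usp28 a negative log2 fold change. Usp25 was called only by DESeq2 with its own size factors (0.69), and no other member was called in any fit. The number of called genes went from 2 to 0 with spike-in scaling and from 3 to 0 with relative scaling when at least 10 counts were required in every library, and to 53 with DESeq2 and relative scaling. Leaving out 1 library in turn gave 2 to 8 genes with spike-in scaling (8 without Dp1Tyb replicate 2, 6 without WT replicate 1 or Dp1Tyb replicate 4, and 4 without Dp1Tyb replicate 1) and 1 in every fit with relative scaling. With the replicate number as a block, 9 and 7 genes were called, and the adjusted p was 0.0535 for Usp16 and 0.0603 for Usp25 with relative scaling. The labels do not pair the cultures. The correlations of same-numbered deviations were 0.37, 0.52 and 0.33, but 0.03 for number 3, and 6 of 8 libraries correlated best with their own number, a hint from the data that some numbers share something. Small values changed sign when 1 library was left out: with spike-in scaling Bmi1 ran from -0.099 to 0.22 and Rnf2 from -0.0434 to 0.22 (both lowest without Dp1Tyb replicate 1), Ring1 from -0.25 to 0.21 (highest without Dp1Tyb replicate 2) and Bap1 from -0.0224 to 0.27 (lowest without WT replicate 3), and with relative scaling Rnf2 from -0.067 to 0.0506 (highest without Dp1Tyb replicate 4) and Bap1 from -0.0386 to 0.053 (lowest without WT replicate 1). Bap1 was at -0.0412 with upper-quartile factors. The departure of Usp16 from a fold change of 1.5 ran from -0.0933 to 0.11 (log2, lowest without WT replicate 1). The log2 ratio of Usp16 to Bap1 differed by 0.52 to 0.69 without 1 library, with an exact p of 0.0571 without any of the WT libraries, and by 0.63 as a difference of medians (exact p 0.0571). Usp16 over Rnf2 ran from 0.53 to 0.78 (the latter without Dp1Tyb replicate 1, the library that overlapped WT) and Rnf2 over Ring1 from -0.0009 (without Dp1Tyb replicate 2) to 0.33. Usp25 over Usp28 differed by 0.87 as a difference of medians (exact p 0.0571). As 4 pairs, for which an exact test cannot go below 0.125, the differences were 0.59 for Usp16 over Bap1 and 0.93 for Usp25 over Usp28 (exact p 0.125 each). The cause of these changes was not tested. With SE near 0.32, spike-in scaling limits what can be seen of a single member.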

Other observations

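Skeletal muscle markers had a median log2 fold change of 0.76 with relative scaling, 6 of 7 tested markers being positive and 1, Chrna1 (0.81, SE 0.32), having an unadjusted edgeR p under 0.05 (0.0283). Their summed count was 468 to 1006 in WT and 524 to 1451 in Dp1Tyb, so the groups overlapped. Of the 7 markers, 4 were higher at an unadjusted p under 0.05 when scaled to the spike-ins, against 0.85% of all tested genes. When scaled to the endogenous genes 1 was higher, against 1.74% of all tested genes. That 1 became 3 without Dp1Tyb replicate 1, 2 without WT replicate 2 and 0 without Dp1Tyb replicate 4. Over all tested genes the number in either direction went from 703 to 925, 921 and 761 in these fits. Among 9 neural markers, Nes (-0.41, SE 0.15) and Sox2 (-1.10, SE 0.43) were lower at an unadjusted p under 0.05, against 2.53% of all tested genes. Tubb3 (0.39), Stmn2 (0.41) and Dcx (0.45) were positive without passing. The list had 6 negative and 3 positive values and a median of -0.05. The 2 with such a p became 4 without Dp1Tyb replicate 1 and 0 without WT replicate 1. Without WT replicate 4 or Dp1Tyb replicate 2 or 3 there was 1. In the order of these fits, the number over all tested genes was 925, 757, 668, 529 and 578. With spike-in scaling 192 of all tested genes had such a p. Sox2 (-1.01, edgeR p 0.0159) kept it and Nes (-0.36, edgeR p 0.264) did not. None of the 7 endothelial or 5 epithelial markers tested did so with relative scaling. With spike-in scaling 1 epithelial marker, Krt19, had a log2 fold change of 1.02 (unadjusted edgeR p 0.00302), and its relative counts were 207 to 266 in WT and 204 to 298 in Dp1Tyb replicates 2, 3 and 4, with Dp1Tyb replicate 1 apart from all others at 935. Usp18, a deconjugase of the interferon-induced modifier ISG15 that was picked out after its value was seen, had a log2 fold change of 0.65 and an unadjusted edgeR p of 0.182.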
